A study of Mus musculus with 24 samples.

Results

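Fetal and regenerative epithelial markers are transcripts that are abundant in the fetal gut epithelium or in epithelium that repairs an injury. The 9 markers described here are Clu, Il33, Il1rn, Spp1, Gja1, Tm4sf4, Msln, Anxa1 and Anxa3, found by symbol among the 45706 gene identifiers of the count tables. They were chosen by name as fetal-like and injury-response markers when their change between on and off libraries in these data, described below, was already known. They were read in 24 RNA libraries of mouse (C57BL/6N) organoids, which are cultures of epithelium that were started from small intestinal (SI) or colonic (COL) crypts. Every culture, the controls included, carried Villin::CreERT2, a tamoxifen-dependent Cre recombinase under a promoter of the intestinal epithelium. On top of this transgene, BRAF cultures had 1 BraffloxV600E allele, which switches from wild-type BRAF to the constitutively active kinase BRAFV600E. Cultures called p53 had 1 Trp53LSL-R172H allele, which is silent until Cre removes a stop cassette and then gives the mutant p53R172H, and BRAFp53 cultures had both alleles. Cultures were given 4-hydroxytamoxifen (4-HT) for 24 h (on) or ethanol (off). COL cultures received 3.5 µM 4-HT and gave RNA on day 3, and SI cultures received 0.5 µM and gave RNA on day 8. By the study's methods, the medium of COL cultures also held Wnt3a and an inhibitor of the kinase GSK3, which are given for colonic crypts alone. There were 12 groups of 2 libraries, with 1 donor culture per genotype and tissue, so genotype and culture cannot be told apart and the spread between libraries is that of handling, not of animals. COL libraries held 51.2 to 78.2 M counts (M, 1000000 counts) and SI libraries 44.4 to 68.2 M.

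Intestinal epithelium renews from crypt stem cells in the adult, while the fetal epithelium grows as immature spheroids with another transcript profile. After injury, adult epithelium takes up part of that fetal profile for a time, and the markers read here are known from both settings. Clu (clusterin, a secreted chaperone) marks rare cells that rebuild the crypt after damage. Il33 is an alarmin cytokine of the interleukin-1 family, Il1rn is the antagonist of the interleukin-1 receptor, and Spp1 (osteopontin) is a secreted matrix protein that binds integrins and Cd44. Gja1 (connexin 43) forms gap junctions, Tm4sf4 is a membrane-spanning protein of a tetraspanin-like family, and Msln (mesothelin) is a surface glycoprotein best known from mesothelium. Anxa1 and Anxa3 are annexins, which bind phospholipid membranes in the presence of calcium. In the GRCm38 annotation (GENCODE M21), Clu (ENSMUSG00000022037) lies at chr14:65968483-65981547, Il33 (ENSMUSG00000024810) lies at chr19:29925114-29960718, Il1rn (ENSMUSG00000026981) lies at chr2:24336853-24351494. Spp1 (ENSMUSG00000029304) lies at chr5:104435118-104441050, Gja1 (ENSMUSG00000050953) lies at chr10:56377330-56402513, Tm4sf4 (ENSMUSG00000027801) lies at chr3:57425314-57441677. Msln (ENSMUSG00000063011) lies at chr17:25748613-25754378, Anxa1 (ENSMUSG00000024659) lies at chr19:20373428-20390944, Anxa3 (ENSMUSG00000029484) lies at chr5:96793339-96845966. Msln and Anxa1 are on the minus strand and the other 7 on the plus strand.

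Promoters of the markers were searched, as a description, for motifs of factors known from ERK and Hippo signalling. RefSeq promoter windows (GRCm38.p6) were given for 6 of the 9 markers, and not for Clu, Msln and Anxa3. Whether the markers share a control was not tested. The 250 bases before each start were read on both strands for AP-1 (TGANTCA), TEAD (CATTCC) and ETS (CCGGAAG). AP-1 letters stood in 2 of the 10 windows of these 6 genes, TEAD letters in 4 and ETS letters in 1. The TEAD letters were in both windows of Il33, in 1 of Il1rn and in that of Anxa1. Outside annotated exons they were left in those of Il33 alone. Over all 32851 windows of this length, 6.75% held the AP-1 letters, 12.6% the TEAD letters and 6.91% the ETS letters. The motifs did not overlap each other in the stretches shown. The stretches printed are those before annotated exons of both windows with AP-1 letters (Il1rn and Gja1) and of Tm4sf4. Il1rn was called higher in every arm with the BRAF allele, and Gja1 in none by edgeR with its filter. Tm4sf4 was the marker with the highest induced level, and its window held none of the 3 motifs. Il1rn has 3 windows, and the other 2 held no AP-1 letters. Counts per gene do not tell which start was used. Capitals mark the AP-1 letters, which began 141 bases before the RefSeq start of Il1rn and 19 bases before that of Gja1. These starts are not the GENCODE starts given above. For Gja1, the first bases after the RefSeq start were not found in a GENCODE transcript. All 3 stretches lie on the plus strand, Il1rn at chr2:24336610-24336852, Gja1 at chr10:56377050-56377299 and Tm4sf4 at chr3:57425160-57425313.
Il1rn: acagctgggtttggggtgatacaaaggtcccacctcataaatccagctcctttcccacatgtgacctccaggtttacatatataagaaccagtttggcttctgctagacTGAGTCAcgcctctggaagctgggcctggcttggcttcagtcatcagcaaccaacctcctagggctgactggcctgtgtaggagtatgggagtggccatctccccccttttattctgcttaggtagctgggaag
Gja1: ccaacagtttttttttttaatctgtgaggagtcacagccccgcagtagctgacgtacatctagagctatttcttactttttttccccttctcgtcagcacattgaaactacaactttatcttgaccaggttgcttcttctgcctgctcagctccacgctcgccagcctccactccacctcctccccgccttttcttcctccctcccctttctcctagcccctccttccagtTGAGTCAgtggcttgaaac
Tm4sf4: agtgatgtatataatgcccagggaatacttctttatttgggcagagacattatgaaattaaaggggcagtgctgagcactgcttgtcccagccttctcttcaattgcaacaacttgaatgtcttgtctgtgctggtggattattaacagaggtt

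Before the markers are described, 1 library has to be set apart. In SI BRAF on replicate 1, Xist reached 17.1 CPM (counts per 1000000 counts of the library), against 0 to 0.471 CPM in the 15 other libraries with Y-linked transcripts and 115 to 166 CPM in the 8 libraries without them. Its Y-linked transcripts stood at 60.8 CPM, against 61.3 to 113 CPM in those 15. The 8 libraries without Y-linked transcripts are all those of SI p53 and SI BRAFp53, so sex differs between these cultures and those of SI BRAF and COL. Changes and tested differences of the markers that rest on the library with both are given with and without it where they are named. As a check of the labels, the log2 fold change of Trp53 was 0.52 to 0.94 in the 4 arms with the p53 allele (called in all but SI p53, adjusted p of 0.000623 to 0.194, edgeR), and that of Braf was 0.38 to 0.50 in the 4 arms with the BRAF allele (called in none). Counts per gene do not read the mutant alleles themselves. Markers of position did not place the COL BRAF culture on 1 side of the other COL cultures. Of the small intestine markers, Gata4 was higher in it (32.1 to 49.4 against 0.293 to 2.67 CPM) and Lyz1 lower (229 to 283 against 704 to 1750 CPM), and Car1 (colon) was at 1330 to 4950 against 3480 to 18000 CPM. Of 9 fibroblast and smooth muscle markers the summed level was 0.658 to 3.86 CPM in all libraries. Among 7 immune markers, Adgre1 and Cd3e were at or below 3 counts throughout, whereas the sum rose from 7.96 to 8.26 CPM in SI BRAF off to 20.0 to 29.3 CPM in SI BRAF on, most of it Itgam, from 3.93 to 6.41 CPM to 15.5 to 18.0 CPM in SI BRAFp53, with Csf1r at 0.449 to 1.72 CPM off and 8.87 to 11 CPM on, and from 6.42 to 6.83 CPM to 12.3 to 13.1 CPM in COL BRAFp53, led by Cd68. Mesothelial Wt1 and Bnc1 were at or below 3 counts in SI. Upk3b, another mesothelial marker, was lower in on than in off libraries of SI BRAF (3.39 to 8.04 against 11.5 to 17.0 CPM), where Msln was higher. The sum of 7 epithelial markers was higher in on than in off libraries of all 4 arms with the BRAF allele. In COL BRAF the sum was 9750 to 10400 CPM off and 23800 to 25700 CPM on. Apoa4 was at 298 to 333 CPM in SI BRAF off and at 2370 to 3080 CPM in SI BRAF on. The part of these markers in the results below was not tested.

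**Figure D1:**
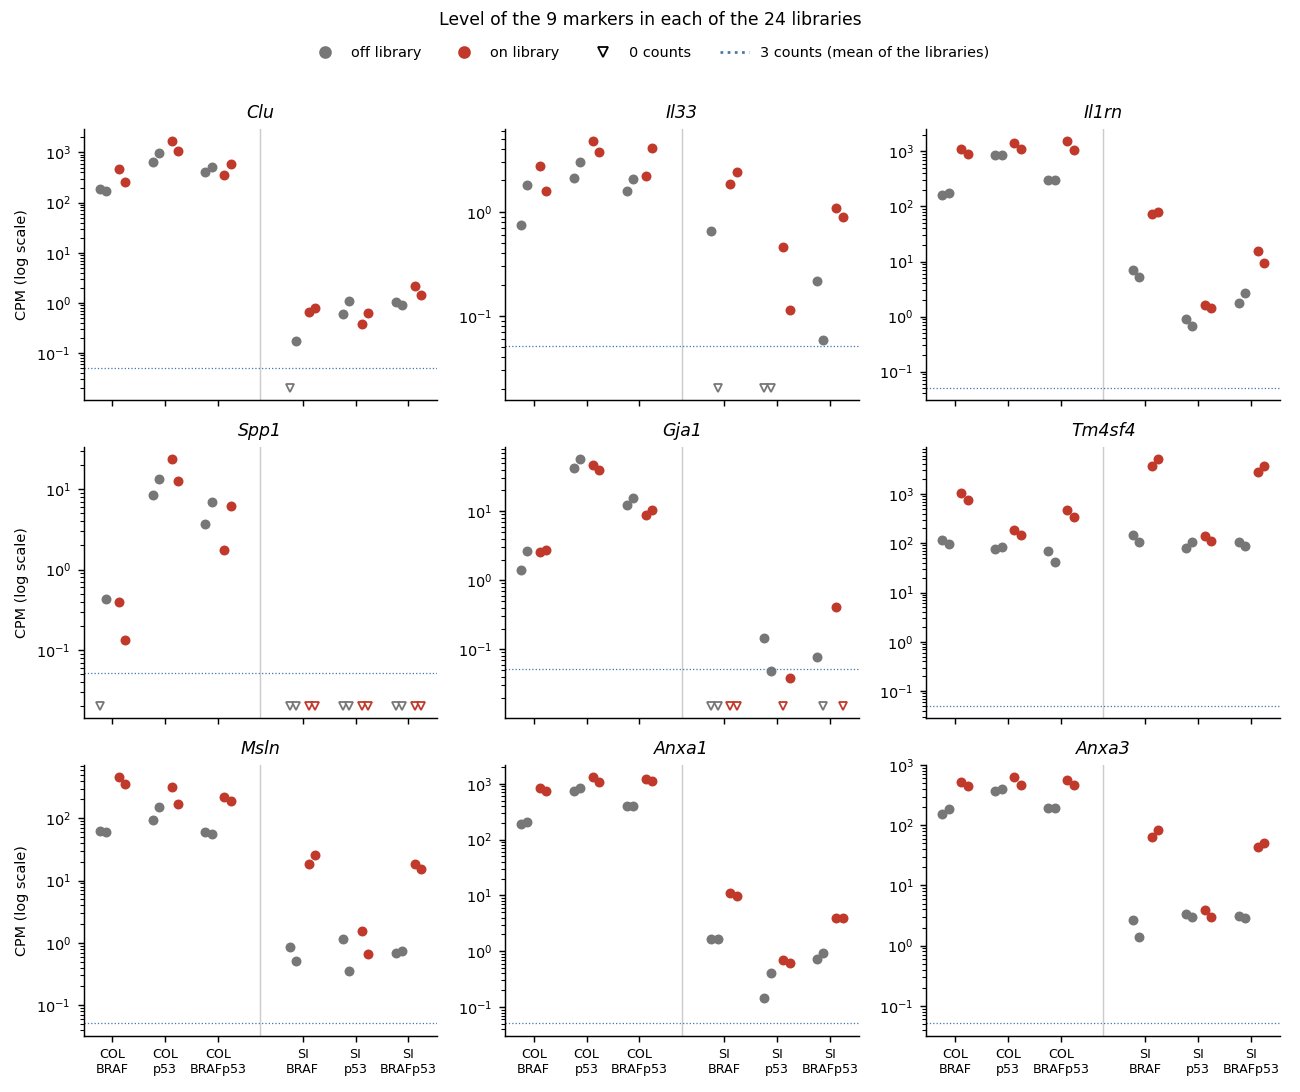
Level of each marker in the 24 libraries, in CPM scaled over all libraries, on a log axis. Each point is 1 library, grey for off and red for on, open triangles are libraries with 0 counts, and the dotted line is the level of 3 counts. On libraries of SI BRAF and SI BRAFp53 lie far above their off libraries for Tm4sf4, Msln and Anxa3, and Spp1 has no count in SI.

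In off organoids, 8 of the 9 markers were lower in SI than in COL, and Tm4sf4 was the exception. Here both off libraries of each culture were added up, so that 3 COL cultures stood against 3 SI cultures, and 29.6% of the 17789 genes tested were called in either direction and 17.0% as lower in SI (Benjamini-Hochberg adjusted p under 0.05 in the edgeR quasi-likelihood test over all genes). The median difference of the 9 markers was -7.23 on the log2 scale, against -0.08 over all genes. Tissue cannot be told apart from whatever else differed between the SI and COL cultures, the medium included.

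Clu stood at 177, 808 and 461 CPM in the COL BRAF, p53 and BRAFp53 off cultures and at 0.0873, 0.852 and 0.963 CPM in the SI cultures, in the same order. The mean was 761 times higher in COL (482 ± 316 against 0.634 ± 0.477 CPM, SD, n = 3 cultures, log2 difference -9.58, SE 1.05, adjusted p = 0.00205). Anxa1 differed about as much, with 200, 782 and 394 CPM in COL and 1.65, 0.276 and 0.836 CPM in SI (log2 difference -9.00, SE 0.92, adjusted p = 0.00177). No SI culture came near a COL culture in either gene. Il1rn was at 167, 858 and 306 CPM in COL and at 6.18, 0.80 and 2.23 CPM in SI (log2 difference -7.23, SE 1.05, adjusted p = 0.00433). Msln was at 61.2, 122 and 57.4 CPM against 0.681, 0.765 and 0.710 CPM (log2 difference -6.84, SE 0.39, adjusted p = 0.000537). Anxa3 was at 169, 385 and 194 CPM against 2.02, 3.16 and 2.99 CPM (log2 difference -6.56, SE 0.44, adjusted p = 0.000817). The SI cultures of these 3 genes thus lay 91.7 to 144 times below the COL cultures on average.

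The remaining secreted and junction genes were at or below 0.324 CPM in the SI off cultures. Gja1 reached 2.04, 49.6 and 13.9 CPM in COL and 0, 0.0967 and 0.0391 CPM in SI (adjusted p = 0.00704), and 9 of the 12 SI libraries, off and on, had at most 3 counts. Spp1 had 0.218, 11 and 5.35 CPM in COL and no count in any of the 12 SI libraries, so the mean of the COL off cultures, which p53 and BRAFp53 carried, was 98.6 times the level of 3 counts in an SI library (adjusted p = 0.0205). Il33 was at 1.27, 2.55 and 1.83 CPM in COL and at 0.324, 0 and 0.137 CPM in SI (log2 difference -3.80, SE 1.09, adjusted p = 0.038). The calls of Il33, Spp1 and Gja1 were the least firm: with 1 culture left out the adjusted p of Il33 reached 0.12 and that of Spp1 0.063, and with limma-voom those of Spp1 and Gja1 were 0.0843 and 0.129. Tm4sf4 stood apart from the rest of the list, with 107, 80.0 and 54.8 CPM in COL and 129, 91.4 and 96 CPM in SI. Its cultures overlapped between the tissues (log2 difference 0.35, SE 0.26, adjusted p = 0.348).

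**Figure D2:**
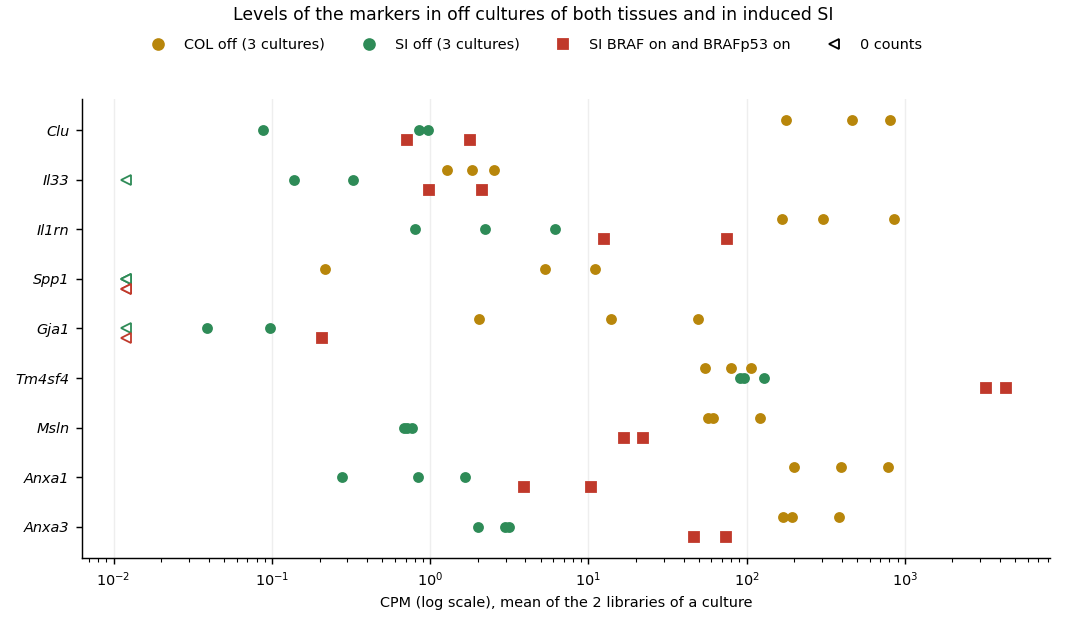
Mean level of each marker in each culture, in CPM on a log axis. Circles are the 3 off cultures of COL and of SI, red squares are induced SI BRAF and BRAFp53 cultures, and open triangles are cultures with 0 counts. Off cultures of the tissues overlap for Tm4sf4 alone, and induced SI stays left of every COL off culture for Clu, Il1rn, Gja1, Msln, Anxa1 and Anxa3.

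The COL off cultures also differed among themselves. For 7 of the 9 markers the p53 culture was highest, BRAFp53 followed and BRAF was lowest, and the libraries of neighbouring cultures did not overlap except for Il33 in BRAFp53 and BRAF. For Spp1 the lowest culture, BRAF, had 0 and 0.436 CPM in its libraries. The highest culture exceeded the lowest 24.3 times for Gja1 and 2.01 to 5.15 times for Clu, Il33, Il1rn, Anxa1 and Anxa3. Msln had the order p53, BRAF, BRAFp53 and Tm4sf4 the order BRAF, p53, BRAFp53, with ranges of 2.12 and 1.95 times. Each of these differences is between single cultures that had received ethanol in place of 4-HT.

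On induction, 6 of the 9 markers were called higher in COL BRAF, 5 in COL BRAFp53, 6 of the 7 tested in SI BRAF and 5 of 7 in SI BRAFp53. EdgeR called no marker lower in these 4 arms, except that Gja1 was called lower in COL BRAFp53 with no filter on low counts. Over all genes, 10.3%, 9.95%, 17.5% and 6.98% were called higher in these arms and 19.9%, 17.7%, 31.7% and 11.5% in either direction. Both on libraries lay above both off libraries for 6, 6, 7 and 7 markers, and for 29.5%, 27.5%, 32.1% and 29.0% of all genes tested. The markers were known for their change on induction when the list was drawn up, so these counts and the changes below are a description and carry no test. The median log2 fold change of the markers tested was 1.5, 1.41, 3.58 and 2.8 in the order given, against -0.01, -0.04, -0.06 and -0.03 over all genes. Spp1 and Gja1 were too low in SI to be tested. In bulk libraries, more cells with a transcript and more transcript per cell cannot be told apart.

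Among the secreted proteins, Il1rn was higher in on than in off libraries of every arm with the BRAF allele. COL BRAF libraries had 160 and 174 CPM off and 1110 and 893 CPM on, and COL BRAFp53 libraries 309 and 302 CPM off and 1520 and 1050 CPM on. SI BRAF libraries had 7.04 and 5.33 CPM off and 71.8 and 79.8 CPM on, and SI BRAFp53 libraries 1.74 and 2.73 CPM off and 15.7 and 9.52 CPM on. On and off libraries did not overlap in any of the 4 arms, and the log2 fold changes were 2.58 (SE 0.19), 2.07 (SE 0.18), 3.58 (SE 0.26) and 2.45 (SE 0.27).

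Clu was called in 2 of these 4 arms. In COL BRAF it went from 184 and 170 CPM off to 461 and 256 CPM on (log2 fold change 1.01, SE 0.31, called). The call was lost with limma-voom and without either off replicate or on replicate 1, where the change was 0.51. In COL BRAFp53 the libraries overlapped, with 403 and 519 CPM off and 354 and 590 CPM on (0.03, SE 0.31, not called). The SI BRAF libraries held 0 and 0.175 CPM off and 0.646 and 0.790 CPM on, a called change of 2.84 (SE 0.82) at 0 to 29 counts per library, which was lost without off replicate 1 (1.96) or on replicate 2 (2.71). Without off replicate 2 the off library left had no count, and the fitted change was 8.19. SI BRAFp53 libraries had 1.02 and 0.910 CPM off and 2.14 and 1.46 CPM on (0.86, SE 0.66, not called). Even induced SI organoids thus held a small fraction of the Clu level of any COL library.

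Il33 remained rare everywhere, at 4.74 CPM or less, and edgeR with its filter and all libraries called it in no arm. It was called in SI BRAF with DESeq2, with limma-voom, with no filter and without SI BRAF off replicate 1, and with no filter also in SI p53 and SI BRAFp53. In SI BRAF it had 0.648 and 0 CPM off and 1.85 and 2.43 CPM on (log2 fold change 2.72, SE 1.14, and 1.68 to 9.8 with 1 library left out, the highest where the off library left had no count), and in SI BRAFp53 0.215 and 0.0581 CPM off and 1.09 and 0.884 CPM on (2.8, SE 1.20). Neither pair of groups overlapped. Spp1 was called in no arm either. It ranged from 0 to 23.5 CPM in COL, and its on and off libraries overlapped in all 3 COL arms.

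Of the surface and junction proteins, Tm4sf4 reached the highest level of the list. COL BRAF libraries had 116 and 96.7 CPM off and 1050 and 756 CPM on, and COL BRAFp53 libraries 68.3 and 41.2 CPM off and 474 and 348 CPM on. SI BRAF libraries had 150 and 107 CPM off and 3750 and 5040 CPM on, and SI BRAFp53 libraries 104 and 88.0 CPM off and 2850 and 3650 CPM on. The tissues thus started from overlapping levels and ended apart, with every induced SI library of these genotypes above every COL library. The log2 fold changes were 3.08 (SE 0.25) and 2.91 (SE 0.25) in COL BRAF and BRAFp53 and 5.05 (SE 0.22) in both SI arms.

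Msln was higher in on libraries of all 4 arms as well. COL BRAF had 62.3 and 60.1 CPM off and 456 and 355 CPM on (log2 fold change 2.72, SE 0.28), and COL BRAFp53 59.8 and 55.1 CPM off and 220 and 188 CPM on (1.83, SE 0.27). SI BRAF had 0.857 and 0.506 CPM off and 18.3 and 26.1 CPM on (5.0, SE 0.49), and SI BRAFp53 0.684 and 0.736 CPM off and 18.6 and 15.2 CPM on (4.53, SE 0.48). On and off libraries overlapped in no arm. Gja1, in contrast, was called in no arm, except in COL BRAFp53 with no filter. In COL BRAFp53 both on libraries (8.93 and 10.3 CPM) lay below both off libraries (12.4 and 15.4 CPM), an order found for 29.3% of all genes, with a log2 fold change of -0.54 (SE 0.24), and in COL BRAF the libraries overlapped at 1.43 to 2.75 CPM.

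The annexins Anxa1 and Anxa3 changed alike in COL and less alike in SI. Anxa1 had 189 and 210 CPM off and 848 and 734 CPM on in COL BRAF (log2 fold change 1.98, SE 0.13), and 393 and 394 CPM off and 1240 and 1140 CPM on in COL BRAFp53 (1.59, SE 0.13). In SI BRAF it had 1.64 and 1.66 CPM off and 10.9 and 9.89 CPM on (2.61, SE 0.34), and in SI BRAFp53 0.723 and 0.949 CPM off and 3.95 and 3.93 CPM on (2.19, SE 0.35). Off and on libraries were apart in each arm. Anxa3 had 153 and 186 CPM off and 515 and 444 CPM on in COL BRAF (1.5, SE 0.16), and 196 and 193 CPM off and 568 and 462 CPM on in COL BRAFp53 (1.41, SE 0.16). In SI BRAF it had 2.64 and 1.40 CPM off and 64.4 and 83.9 CPM on (5.18, SE 0.26), and in SI BRAFp53 3.15 and 2.83 CPM off and 43.5 and 49.8 CPM on (3.93, SE 0.24). In SI the change of Anxa3 thus exceeded that of Anxa1, while in COL that of Anxa1 was the larger by values. Anxa3 shares 112 exonic bases with Gm42603 on the same strand, and Spp1 309 bases with Gm42793, so reads there could have been left out or given to either gene.

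Without SI BRAF on replicate 1, 6 markers were still called higher in SI BRAF, and the log2 fold changes were 2.99 for Clu, 2.91 for Il33, 3.65 for Il1rn, 5.25 for Tm4sf4, 5.24 for Msln, 2.54 for Anxa1 and 5.36 for Anxa3.

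**Figure D3:**
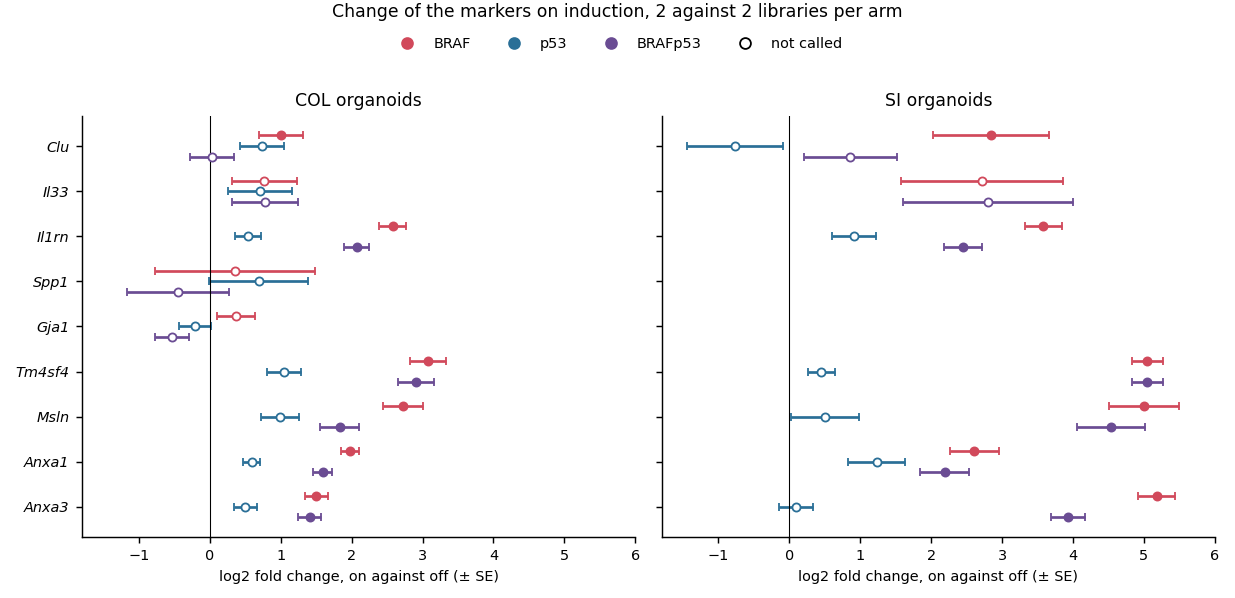
Change of each marker on induction in COL and SI, as log2 fold change with its SE, 2 on against 2 off libraries in each arm. Filled points were called at an adjusted p under 0.05 over all genes, open points were not, and genes at or below 3 counts in a group are left out. The p53 arm has open points alone, and Tm4sf4, Msln and Anxa3 reach 3.93 to 5.18 in SI BRAF and BRAFp53.

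With p53R172H alone, 0 of 9 markers were called in COL (0.142% of all genes were called in either direction and 0.0316% as higher) and 0 of 7 in SI (0.0%). In COL p53, both on libraries were nevertheless above both off libraries for 7 markers, all but Spp1 and Gja1, and 21.3% of all genes showed this. Tm4sf4 went from 77.7 and 82.2 to 186 and 150 CPM (log2 fold change 1.05, SE 0.24), and Msln from 94.1 and 150 to 320 and 171 CPM (0.99, SE 0.27). Clu had 659 and 957 CPM off and 1660 and 1060 CPM on (0.73, SE 0.31), and the changes of Il33, Il1rn, Anxa1 and Anxa3 were 0.50 to 0.71. The count in COL p53 moved with the method. With no filter on low counts, 6 markers were called higher (1.87% of all genes called). The count was 2 with DESeq2, 1 with the replicate number as a block and 0 with limma-voom. The share of all genes called with DESeq2 or the block is not given here, so these counts are no result about the markers. In SI p53, on libraries were above off libraries for Il33, Il1rn, Tm4sf4 and Anxa1, and for 19.8% of all genes, with Tm4sf4 at 78.8 and 104 CPM off and 139 and 113 CPM on (0.45, SE 0.19) and Il1rn at 0.914 and 0.686 CPM off and 1.62 and 1.42 CPM on (0.91, SE 0.31).

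Whether the p53R172H allele went with another response to BRAFV600E was tested as the difference between the BRAFp53 and the BRAF response. The differences below use the same libraries as the changes above. The markers were listed with those changes known, so the p-values of the differences are no independent evidence. In COL, no marker was called by edgeR (0.907% of all genes were called), nor by DESeq2 or limma-voom, with 4 at an unadjusted p under 0.05, and the lowest adjusted p was 0.206 (Gja1, log2 difference -0.91, SE 0.36). Clu had -0.98 (SE 0.44, adjusted p = 0.252) and Msln -0.90 (SE 0.38, adjusted p = 0.227). With no filter on low counts 3 markers were called lower (4.31% of all genes called in either direction), namely Clu, Gja1 and Msln. In SI, 8.2% of all genes were called, and of the 7 markers tested Anxa3 was called, with a response smaller by 1.25 in BRAFp53 on the log2 scale (log2 difference -1.25, SE 0.33, adjusted p = 0.0348). Without SI BRAF on replicate 1 it was -1.42 (adjusted p = 0.0175). Genotype, culture and sex cannot be told apart in these SI differences. Leaving out any of 6 other libraries lost the call (SI BRAF off replicate 2, SI BRAF on replicate 2 and each SI BRAFp53 library, adjusted p of 0.0559 to 0.153), as did limma-voom (0.0613) and the replicate block (0.0687). Il1rn had a difference of -1.13 (SE 0.36, adjusted p = 0.0727, and -1.19 with 0.0696 without SI BRAF on replicate 1), and it was called with no filter, with at least 10 counts in every library, with DESeq2 and without SI BRAFp53 on replicate 1.

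SI and COL responses were set against each other in 1 fit over all 24 libraries. Dose of 4-HT, day of RNA isolation and medium differed between SI and COL. Tissue, dose, time and medium, and for p53 and BRAFp53 also sex, cannot be told apart in these differences. For BRAFV600E alone, 4 of the 7 markers that could be read in SI had a larger log2 response there by this test, and none a smaller one. Over all genes, 10.7% were called in either direction and 7.4% as larger in SI. In CPM, Anxa3 (72.2 against 310), Msln (21.5 against 344) and Il1rn (69.6 against 836) rose less in SI than in COL. Tm4sf4 rose more (4260 against 798). On the log2 scale, Anxa3 had the largest difference (3.73, SE 0.30, adjusted p = 3.31e-07), followed by Msln (2.33, SE 0.56, adjusted p = 0.0105), Tm4sf4 (2.01, SE 0.34, adjusted p = 0.000821) and Il1rn (1.03, SE 0.31, adjusted p = 0.0408). Without SI BRAF on replicate 1, Anxa3 (3.90), Msln (2.56) and Tm4sf4 (2.20) were called and Il1rn was not (1.11, adjusted p = 0.0531). The Il1rn call was also lost without any of 5 other libraries, with limma-voom and with the replicate block (adjusted p up to 0.197), and the Msln call without SI BRAF off replicate 2 (0.0978) and with limma-voom (0.156).

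In BRAFp53, 3 of these 7 markers had a larger log2 response in SI. Over all genes, 3.52% were called in either direction and 2.13% as larger in SI. The 3 were Msln (2.74, SE 0.55, adjusted p = 0.00885), Anxa3 (2.56, SE 0.29, adjusted p = 7.33e-05) and Tm4sf4 (2.17, SE 0.35, adjusted p = 0.00172). In CPM, Msln (16.2 against 146) and Anxa3 (43.6 against 320) rose less in SI than in COL, and Tm4sf4 more (3150 against 356). Anxa3 and Tm4sf4 were called under every alternative in both genotypes. The Msln call in BRAFp53 was lost with limma-voom (adjusted p = 0.125) and without SI BRAFp53 off replicate 1 (0.0538). Anxa1 had a difference of 0.67 in BRAF (SE 0.24, adjusted p = 0.0814, and 0.59 without SI BRAF on replicate 1). This difference was called with DESeq2 (0.68, adjusted p = 0.016) and with no filter (0.66, adjusted p = 0.0179). In BRAFp53 the Anxa1 difference was 0.64 (SE 0.26, adjusted p = 0.194). For p53 alone no marker was called by edgeR with its filter (0.117% of all genes called), DESeq2 or limma-voom, and 2 markers (Clu and Il33) had an unadjusted p under 0.05. With no filter edgeR called 3 markers (1.54% of all genes called).

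**Figure D4:**
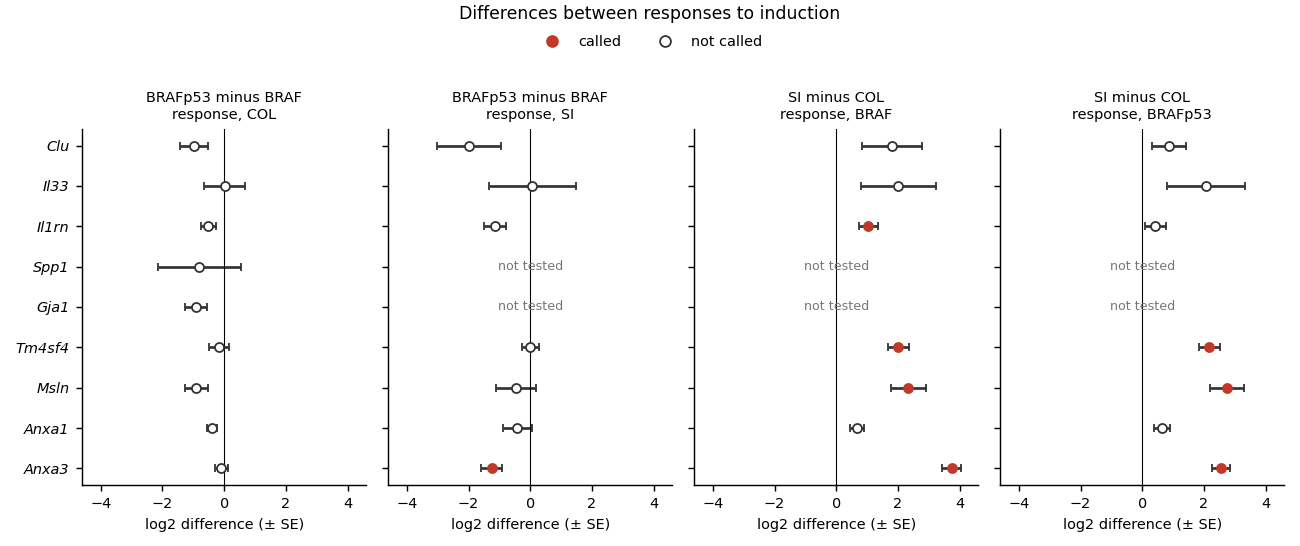
Differences between responses to induction, as log2 difference with its SE. The left pair of panels gives the BRAFp53 minus the BRAF response within each tissue, and the right pair the SI minus the COL response of BRAF and of BRAFp53. Filled points were called at an adjusted p under 0.05 over all genes. Anxa3, Msln and Tm4sf4 lie at 2.01 to 3.73 in both SI minus COL panels.

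Most of the markers were lower in induced SI than in COL off. Induced SI BRAF and BRAFp53 libraries remained below every COL off library for Clu, Il1rn, Gja1, Msln, Anxa1 and Anxa3. Anxa3 was at 43.5 to 83.9 CPM in induced SI against 153 to 396 CPM in COL off, Il1rn at 9.52 to 79.8 against 160 to 860 CPM, and Msln at 15.2 to 26.1 against 55.1 to 150 CPM. Il33 overlapped, with 0.884 to 2.43 CPM in induced SI and 0.743 to 3.01 CPM in COL off. Tm4sf4 was the exception, with 2850 to 5040 CPM in induced SI against 41.2 to 116 CPM in COL off and 348 to 1050 CPM in induced COL of the same genotypes. Per kilobase of exon, Tm4sf4 was at 2550 CPM per kb in the 4 induced SI libraries, and the next was Anxa3 at 16.6 CPM per kb (16.2 without SI BRAF on replicate 1). Il1rn and Msln changed places between the genotypes, with Il1rn at 13.7 and Msln at 7.25 CPM per kb in SI BRAF on, and Il1rn at 2.27 and Msln at 5.51 CPM per kb in SI BRAFp53 on. In COL off, the order of the mean per kilobase over 3 cultures was Anxa1 (157 CPM per kb), Clu (140), Il1rn (80.1), Anxa3 (68.5), Tm4sf4 (53.8), Msln (26.2), Spp1 (3.35), Gja1 (2.13) and Il33 (0.653). Ranges over the 6 libraries overlapped between neighbours in this order except between Msln and Spp1. The order differed by culture, with Tm4sf4 (71.2) and Anxa1 (68.6) at the top in COL BRAF off, where their libraries overlapped. In induced COL, Tm4sf4 (604 CPM per kb) was above Anxa1 (272) in BRAF and below it in BRAFp53 (275 against 408). By the longest transcript in place of all exons, the libraries of both genes overlapped in COL BRAF on.

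A companion list of 26 other fetal and regenerative genes was read in the same arms. The list, and those of relatives below, were drawn up with earlier results of these data known, so their counts and adjusted p-values are no independent evidence of a direction. In COL BRAF 20 were called higher and 1 lower, and in COL BRAFp53 16 higher and 1 lower. In SI, 22 could be tested, of which 16 were called higher and 2 lower in BRAF and 16 higher and 0 lower in BRAFp53. Over all genes, 10.3%, 9.95%, 17.5% and 6.98% were called higher in COL BRAF, COL BRAFp53, SI BRAF and SI BRAFp53. In the p53 arms 0 companions were called by edgeR with its filter. DESeq2 called 9 higher in COL p53 and 1 in SI p53, and edgeR with no filter called 11 in COL p53. The shares of all genes called with DESeq2 and with no filter are not given beside these counts. The median log2 fold change was 1.58, 1.52, 1.52 and 1.47 in these 4 BRAF-bearing arms, against -0.06 to -0.01 over all genes.

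Among the companions, Ly6a (Sca-1, a surface marker of regenerating epithelium) rose from 130 ± 9.20 to 788 ± 34.9 CPM in COL BRAF (SD, n = 2, log2 fold change 2.60, adjusted p = 7.26e-06) and from 1.03 ± 0.0779 to 34.2 ± 9.33 CPM in SI BRAF (5.0, adjusted p = 3.94e-07). Sprr1a (a cornified envelope protein) rose by 3.12 in COL BRAF, 3.05 in COL BRAFp53, 3.37 in SI BRAF and 4.95 in SI BRAFp53 on the log2 scale (adjusted p of 2.07e-06 to 2.8e-05). S100a6, a calcium-binding protein, and F3 (tissue factor) were called higher in all 4 arms too, S100a6 by 1.77 to 3.75 and F3 by 1.89 to 2.89. The genes that fell were Igf2bp3, an RNA-binding protein of fetal tissue, with log2 fold changes of -1.34 in COL BRAF, -1.08 in COL BRAFp53 and -1.10 in SI BRAF (adjusted p of 0.0072 to 0.0359), and its relative Igf2bp2 in SI BRAF (-0.43, adjusted p = 0.02). The Igf2bp3 call was lost in COL BRAFp53 without any 1 of its 4 libraries, with the replicate block, with limma-voom and with no filter, in COL BRAF without off replicate 2 or either on replicate, and in SI BRAF without off replicate 2. Without SI BRAF on replicate 1, 16 companions were called higher and 1 lower in SI BRAF, with Ly6a at 5.26, Sprr1a at 3.63, S100a6 at 3.38, F3 at 2.56 and Igf2bp3 at -1.74, and Igf2bp2 was not called (-0.44, adjusted p = 0.0512).

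Relatives of the markers moved unevenly. Of 10 other annexins, 6 were called higher in COL BRAF, 9 in COL BRAFp53 and 8 each in SI BRAF and SI BRAFp53, and 0 lower. Over all genes, 10.3%, 9.95%, 17.5% and 6.98% were called higher in these arms, in the same order. Anxa2, Anxa5 and Anxa8 are also on the companion list. Anxa2 rose from 956 ± 20.1 to 3170 ± 258 CPM in COL BRAF (log2 fold change 1.72) and Anxa10 from 5.57 ± 1.38 to 240 ± 36.8 CPM in SI BRAFp53 (5.39, adjusted p = 3.27e-06). In the interleukin-1 family (12 genes, 6 tested in COL and 4 in SI), 1 or 2 genes were called in each direction in each of the 4 arms. Il1rap, the accessory chain of the receptor that Il1rn blocks, fell in all 4 arms, by -0.85 in COL BRAF, -1.03 in COL BRAFp53, -1.51 in SI BRAF and -1.39 in SI BRAFp53 (adjusted p of 0.0028 to 0.0124). Il18, a cytokine of that family, rose in COL BRAF (0.65), SI BRAF (2.07) and SI BRAFp53 (0.82), and Il1r1 fell in COL BRAFp53 (-0.93, adjusted p = 0.0157).

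Of the connexins related to Gja1 (11 genes, 7 tested in COL and 5 in SI), Gjb1 rose in COL BRAFp53 (0.94, adjusted p = 0.00796) and SI BRAFp53 (0.73, adjusted p = 0.00109). Of 4 relatives of Tm4sf4, 3 could be tested. Tm4sf1 rose in COL BRAF (3.10, adjusted p = 0.000202) and COL BRAFp53 (2.37, adjusted p = 0.00101). All 3 tested were called higher in both SI arms, where Tm4sf20 and Tm4sf5 rose by 1.72 and 1.47 in BRAF and by 1.38 and 0.87 in BRAFp53. Among the integrins and Cd44 that bind osteopontin, Itgav rose in all 4 arms by 0.51 to 1.08 (adjusted p of 0.00138 to 0.0275) and Cd44 in COL BRAF (0.79, adjusted p = 0.00121). Among 3 clusterin receptors, Lrp8 rose in COL BRAF (0.66, adjusted p = 0.00287) and Vldlr in SI BRAFp53 (0.97, adjusted p = 0.0264). Without SI BRAF on replicate 1, the named relatives were still called in SI BRAF, among them Anxa10 (4.28), Il18 (2.04), Il1rap (-1.89), Tm4sf20 (1.83), Tm4sf5 (1.57) and Itgav (0.54). EdgeR with its filter called no relative in a p53 arm, with a lowest adjusted p of 0.118 in COL p53 and 0.244 in SI p53 over companions and relatives.

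The markers that changed did so in parallel across libraries. After each culture was centred on its own mean, Pearson's r over the 24 libraries was 0.876 to 0.966 for every pair among Il1rn, Tm4sf4, Msln, Anxa1 and Anxa3. Clu correlated with these 5 genes at 0.624 to 0.692, and Il33 at 0.714 to 0.766. Spp1 and Gja1 had r of at most 0.161 with the 5 in size. Over 23 libraries, without SI BRAF on replicate 1, the pairs among the 5 had r of 0.858 to 0.962, Clu 0.565 to 0.634 and Il33 0.686 to 0.741 with them, and Spp1 and Gja1 at most 0.170. The libraries share the on and off states that set most of this pattern, so the values are given as a description. Over 9798 or 9799 genes compared, the genes most like Tm4sf4 were Cldn4 (r = 0.989), S100a6 (0.987) and Anxa5 (0.985), and those most like Anxa3 were Ptprr (0.986), Oit1 (0.983) and Nid1 (0.977). Msln was most like Capn2 (0.979), Cldn4 (0.973) and Ptprr (0.973), and Il1rn was like Sprr2a3 (0.971) and Gprc5a (0.970). Anxa1 was nearest to Tc2n (0.956) and Dusp6 (0.952). For Clu the nearest was Tlcd2 (0.866), for Il33 Mlkl (0.904), for Spp1 Rnf125 (0.801) and for Gja1 Taf15 (0.690), against a median r over all genes of -0.0272 to 0.0415 for the 9 markers.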

How the data were processed

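Paired-end RNA-seq (HiSeq4000) was made from 24 organoid libraries, 12 per tissue. The authors trimmed reads with Trimmomatic (0.36), aligned them with STAR (2.5.2b) to mm10 and deposited raw counts per gene, 1 table per tissue. The submitters' processing notes also list mm9, and strand setting and annotation release are not given in the sources used here. Of 45706 gene identifiers, 45143 were matched to GENCODE M21. No replicate pair agreed within sampling noise (chi-square per degree of freedom 20.5 to 92.4). Counts of 19250 to 22750 genes were above 0 in a library, and 3 counts, the detection floor, equal 0.0368 to 0.0878 CPM, which covers counting error only.

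Levels are CPM with TMM scaling over 24 libraries. Changes were fitted per tissue with edgeR 4.0.16 in R 4.3.3 (filterByExpr by group, TMM, quasi-likelihood test, Benjamini-Hochberg adjustment over all genes, threshold 0.05), SI against COL responses over 24 libraries, and off tissues on counts summed per culture. The study used limma; edgeR was fitted because the values are counts. Alternatives were DESeq2 1.42.0, limma-voom (limma 3.58.1), RLE size factors, no filter, at least 10 counts in every library, a replicate block and leaving out each library or culture. The fitting steps were tested on simulated data. The members and all lists were chosen with earlier results of these data known, so on against off changes of the members carry no p. For the same reason, p-values of differences between these changes are no independent evidence. Of companions and relatives, up to 3 genes per direction and arm with the largest change and an average log2 CPM of at least 1 were named, and for each marker up to 3 genes of highest Pearson r. Some results that these rules would name are not reported here. Libraries of a group came from 1 culture, so p-values measure the spread between these libraries, which may be technical.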

Additional observations from a re-analysis of the deposited data

Results flagged for a closer look

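Differences between groups that were called by edgeR (adjusted over all genes) are listed here as values. The markers were listed with the changes behind these differences known, so the calls are no independent evidence. On the log2 scale, the response to BRAFV600E was larger in SI than in COL for Il1rn (1.03), Tm4sf4 (2.01), Msln (2.33) and Anxa3 (3.73). Without SI BRAF on replicate 1 these were 1.11, 2.20, 2.56 and 3.90. With both alleles the log2 response was larger in SI for Tm4sf4 (2.17), Msln (2.74) and Anxa3 (2.56). In CPM, Tm4sf4 alone of these markers rose more in SI. Within SI, the Anxa3 log2 response differed between BRAFp53 and BRAF by -1.25 (-1.42 without SI BRAF on replicate 1). With limma-voom the calls of Il1rn, of Msln in both genotypes and of Anxa3 within SI were lost. Tissue, dose of 4-HT, day and medium (and, with both alleles, sex) cannot be told apart in the 7 differences between SI and COL. Genotype, culture and sex cannot be told apart in the difference within SI.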

How the results depend on the processing

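No called change or called difference of a marker changed sign, whereas changes that were not called did in Clu and Spp1 (COL BRAFp53), Spp1 and Gja1 (COL BRAF) and Msln and Anxa3 (SI p53). The count of markers called stayed within 1.5 times the reported one in 64 of 70 fits with a library or culture left out and in 58 of 72 other alternatives, and the companion count in 35 of 48 and 64 of 72. With no filter on low counts, 6 markers were called in COL p53, 3 in SI p53, 3 and 2 for BRAFp53 minus BRAF in COL and SI, and 3 and 5 for SI minus COL in p53 and BRAFp53, with 11 companions higher in COL p53 and 1 in SI p53. With at least 10 counts in every library, 2 markers were called for SI BRAFp53 minus BRAF and 5 for off SI against COL, and 2 companions were lower in COL BRAFp53. DESeq2 called 2 markers in COL p53 and 2 for SI BRAFp53 minus BRAF, 9 companions higher in COL p53, 1 higher in SI p53, 2 lower in COL BRAFp53 and 1 lower in SI BRAFp53. Limma-voom called 0 markers for SI BRAFp53 minus BRAF and 2 for SI minus COL in BRAF. With 1 library left out, markers called ranged from 0 to 2 in COL p53, 0 to 1 for SI BRAFp53 minus BRAF and 2 to 5 for SI minus COL in BRAF, companions higher from 0 to 5 in COL p53, and companions lower from 0 to 1 in COL BRAF, at 0 in COL BRAFp53 and from 0 to 1 in SI BRAF. For most of these fits, and for the block below, the share of all genes called is not given here. Such counts cannot tell a shift of the markers from one over all genes. The cause was not tested. Same-numbered off and on libraries did not deviate together (r of -0.0392 to 0.0573 over 6 cultures), so the numbers do not pair them. With the replicate number as a block, 1 marker was called in COL p53, 0 for SI BRAFp53 minus BRAF and 3 for SI minus COL in BRAF (Il1rn lost), and 0 companions were lower in COL BRAFp53. Below 3 counts a difference was not detectable, which limits Spp1, Gja1 and Il33 in SI.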
